A study of Homo sapiens with 12 samples.

Results

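The comparison described here sets MDA-MB-231 cells carrying a guide RNA against UFL1 (sgUFL1, 3 libraries) beside the cells with a control guide that the labels name as their controls (sgCtrl_to_sgUFL1, called the controls below, 3 libraries). These are 6 of the 12 libraries of the series. The other 6 are cells with a guide against UFM1 (sgUFM1) and a separate group of control-guide cells named for it (sgCtrl_to_sgUFM1), 3 libraries each. MDA-MB-231, a long-used breast cancer cell line of human origin, is hormone receptor-negative and mesenchymal-like, and the series describes the UFL1 and UFM1 cells as knockouts. The labels give no guide sequence, no time after guide delivery, no added agent and no statement on whether the cells were a pool or 1 clone, and do not state that replicate libraries are independent cultures, so p-values measure only the spread between these libraries. Total RNA was sequenced in all of them. The 2 deposited tables of these libraries name 2 groups differently: the columns called sgUFL1 in the FPKM table are proportional, gene by gene, to the columns called sgCtrl_to_sgUFM1 in the count table, and the reverse. Groups were taken by the names of the FPKM table. The names alone do not say which table holds the intended ones, and which is right was not tested.

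UFL1 is the ligase that, with its adaptors DDRGK1 and CDK5RAP3, attaches the small ubiquitin-like protein UFM1 to its targets at the endoplasmic reticulum (ER), with UFC1 as the carrier of UFM1. A well-known target is the ribosomal protein RPL26 on ribosomes docked at the ER translocon, and loss of the pathway is known for its effects on ER-phagy, ribosome quality control and ER stress. RNA sequencing measures the messages of these genes and not the modification itself.

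UFL1 transcripts were lower in the sgUFL1 libraries, but did not pass the test at an adjusted p under 0.05. UFL1 (ENSG00000014123, GRCh38 chromosome 6, 96521595 to 96555276) was measured at 17.5, 22.1 and 22.4 corrected CPM (each gene's read count scaled to the size of its library, CPM below) in the controls and at 14.4, 14.2 and 16.2 in the sgUFL1 libraries, with the GC and length trends between libraries removed. All 3 sgUFL1 values lay under all 3 control values, which was also so for 15.2% of all genes tested. The log2 fold change of UFL1 was -0.47 (SE 0.13, adjusted p = 0.051), and -1.02 (adjusted p = 0.0017) with library scaling alone. In the other libraries UFL1 was measured at 17.6, 20 and 19.3 CPM in the controls for sgUFM1 and at 21.5, 23.8 and 22.4 in sgUFM1. A guide that cuts the coding sequence need not lower the message, so the transcript level is a weak check of the labels. UFM1, the modifier itself, had 52.0, 59.2 and 51.2 CPM in the controls and 58.6, 69.0 and 69.1 in sgUFL1, and the groups overlapped. UFM1 had a log2 fold change of 0.28 (SE 0.09, adjusted p = 0.098), which is -0.31 with library scaling alone. No member of the UFMylation list passed the test in either direction (9 tested, median log2 fold change -0.01, and -0.31 uncorrected). DDRGK1 gave 0.28 (adjusted p = 0.33).

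The libraries of the comparison held 15807024 to 18033331 counts. Weighted by their counts, the transcripts of the controls had a mean GC content of 48.33 to 49.38% and those of the sgUFL1 libraries 50.41 to 50.94%, and mitochondrial genes took 4.51 to 4.76% of control counts and 3.68 to 4% of sgUFL1 counts. Between the groups, log2 fold changes with library scaling alone followed transcript GC content (Spearman rho 0.75 over 15170 genes, which are not independent replicates), and this trend cannot be told apart from the guide by design. A trend on GC content and then on gene length was therefore estimated in each library and removed, after which rho was -0.01. Marker genes, given here in CPM before this correction, fitted the line. ESR1 and PGR, the hormone receptors, stayed at or under 1.17 CPM in all 6 libraries. CDH1, the epithelial cadherin, was at or under 0.333 CPM, and VIM was at 786 to 1050 CPM. The leukocyte markers, also before correction, summed to 4.24 to 5.54 CPM in the controls and 7.54 to 8.3 in sgUFL1. CD3E, CD3G, MS4A1 and HBA1 were among those at 0 in all 6.

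With the trends removed, 616 genes were higher and 477 lower in sgUFL1 than in its controls at an adjusted p under 0.05, out of 15175 tested. That is 7.2% of the genes tested (4.06% higher and 3.14% lower), and 110 of the higher and 66 of the lower genes changed at least 2-fold. With library scaling alone, 35.8% were called. The 2 ways shared 707 genes called in the same direction, 435 higher and 272 lower. In bulk RNA, fewer cells of a kind and less RNA per cell cannot be told apart.

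**Figure D1:**
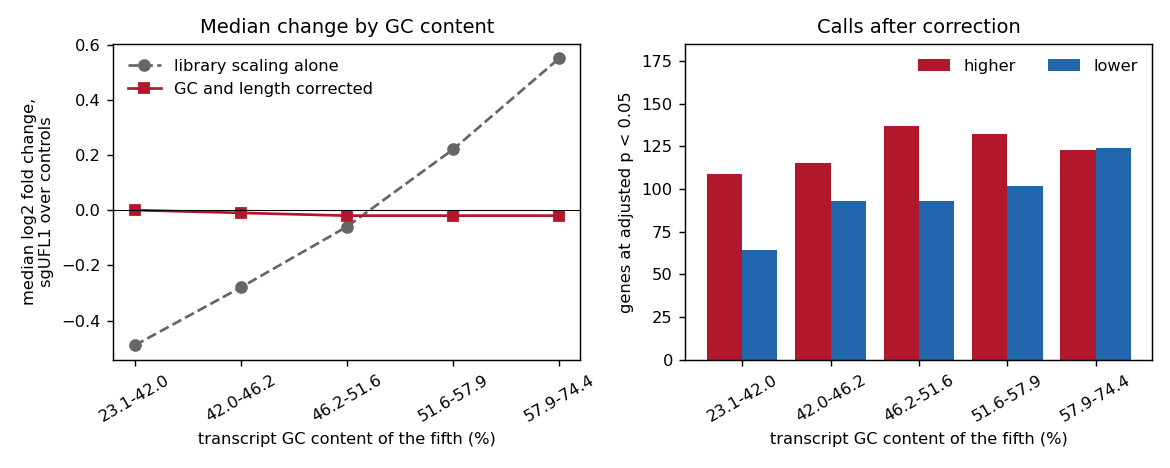
Left, median log2 fold change of sgUFL1 over its controls (y axis) in 5 equal bins of the tested genes by transcript GC content (x axis, percent), with library scaling alone (grey, dashed) and after correction for GC content and length (red); right, number of genes called higher (red) and lower (blue) after correction. The uncorrected medians climb from -0.49 in the bin with least GC to 0.55 in the bin with most, and the corrected ones lie between -0.02 and 0.

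The number of calls rested on single libraries. Without control replicate 2, the library most unlike the other controls, 1805 genes were higher and 1613 lower. Leaving out any of the other 5 lowered the counts, to 392 and 328 without control replicate 1, 319 and 193 without control replicate 3, 275 and 113 without sgUFL1 replicate 1, 96 and 33 without sgUFL1 replicate 3, and 72 and 30 without sgUFL1 replicate 2. Each of these fits has 1 library fewer. A core of 92 genes, 68 higher and 24 lower, was called in the full comparison and in all 6 smaller ones, and genes of this core are named as such. A called gene not described as keeping its call lost it in at least 1 of the 6 smaller fits.

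**Figure D2:**
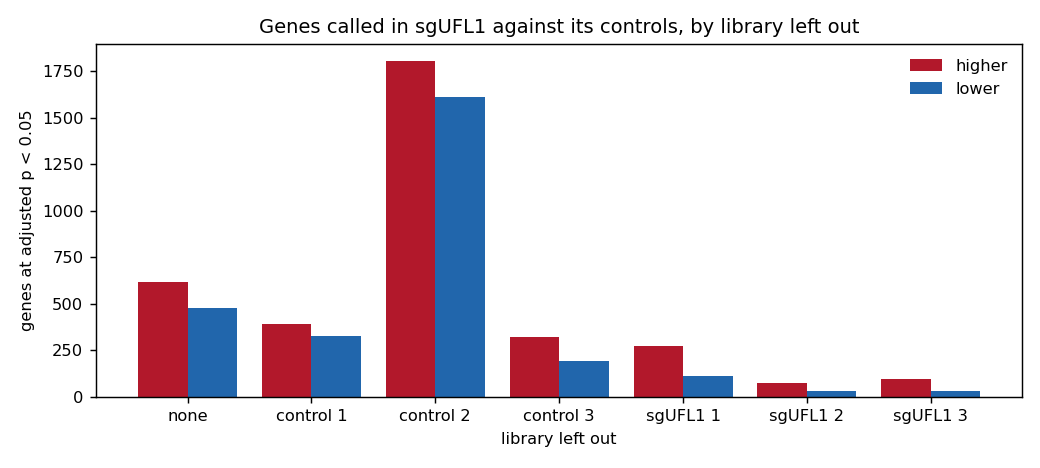
Number of genes higher (red) and lower (blue) in sgUFL1 at an adjusted p under 0.05 (y axis), with all 6 libraries ("none") and with 1 library left out (x axis). The counts are highest without control 2 (1805 and 1613) and lowest without sgUFL1 replicate 2 (72 and 30).

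Among the genes lower in the sgUFL1 cells were the collagenase MMP1, the monocyte chemokine CCL2, the cytoskeletal linker EPB41L3, the adhesion molecule CADM1 and the transcription factor TBX3. These 5 kept their call whichever library was left out, as did other lower genes given further on, such as IGFN1, F8A1 and the noncoding CCDC144NL-AS1, and they form no list of their own. MMP1 (ENSG00000196611, chromosome 11, 102789920 to 102798160), an interstitial collagenase, was measured at 6710, 6020 and 6610 CPM in the controls and at 1750, 1940 and 1920 in sgUFL1. Its log2 fold change was -1.79 (SE 0.09, adjusted p = 5.5e-06), and the spread within either group (SD 375 and 100 CPM) was small beside the difference. CCL2 (ENSG00000108691, chromosome 17, 34255218 to 34257203) fell from 184, 181 and 142 CPM to 62.6, 67.0 and 72.5, a log2 change of -1.33 (SE 0.11, adjusted p = 0.00014). EPB41L3, which ties membrane proteins to the actin skeleton, fell from 69.3, 83.1 and 65.7 CPM to 28.0, 30 and 28.4 (log2 -1.34, SE 0.10). CADM1, an immunoglobulin-type cell adhesion molecule that binds EPB41L3, fell from 59.4, 45.5 and 56.1 CPM to 21.1, 25.0 and 23.5 (log2 -1.21, SE 0.12, adjusted p = 0.00045). TBX3, a T-box repressor active in mammary development, went from 8.97, 8.20 and 7.36 CPM to 2.23, 1.44 and 1.12 (log2 -2.34, SE 0.26). In none of these 5 genes did the libraries of the groups overlap. Of all genes tested, 15.2% were lower without overlap of the groups.

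Some of the other genes among the 12 lowest protein-coding ones were less even in the controls. IGFN1, an immunoglobulin-like and fibronectin-domain gene, had the lowest log2 fold change of them, -3.40 (SE 0.36, adjusted p = 0.00071). Its control values were 90.0, 27.4 and 68.6 CPM, against 7.51, 4.75 and 5.30 in sgUFL1, and its call held without any 1 library. F8A1 on the X chromosome (log2 -1.65) and SAMSN1 on chromosome 21 (log2 -1.39) likewise kept their calls. F8A1 gave -0.84 (adjusted p = 0.0037) with library scaling alone, and has near-identical copies between which reads cannot be assigned with certainty. MMP3, the stromelysin next to MMP1, had control values of 14.6, 75.2 and 16 CPM, so that replicate 2 stood far above the others, and 5.60, 7.64 and 6.90 in sgUFL1. The MMP3 change was -2.39 (SE 0.54, adjusted p = 0.025), and its call ended without any 1 of the sgUFL1 libraries (adjusted p up to 0.12, log2 -2.76 to -1.19 over the libraries left out). SUSD2 showed the opposite spread, at 17.8, 1.69 and 15.3 CPM in the controls against 1.14, 1.2 and 1.25, and its call ended without control replicate 1 or any sgUFL1 library (adjusted p up to 0.091). TMPRSS15 and RFPL4A, at -1.65 and -1.49, lost their calls in 5 of the 6 smaller fits.

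Among noncoding genes the deepest fall was in CCDC144NL-AS1 on chromosome 17, from 8.10, 5.46 and 9.04 CPM to 0.388, 0.254 and 0.140 (log2 -4.77, SE 0.36, adjusted p = 0.00014, held without any 1 library). Its exons overlap annotated genes on both strands, and the sources give no strand for the counting. TMEM132D-AS1, antisense to the gene TMEM132D, rose from 1.55, 3.38 and 2.25 CPM to 9.64, 9.20 and 7.90 (log2 1.89, SE 0.25, adjusted p = 0.0031), and AL365181.2, a long intergenic RNA, from 2.25, 1.77 and 1.47 CPM to 8.54, 5.57 and 4.91 (log2 1.79). Both kept their calls without any 1 library.

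**Figure D3:**
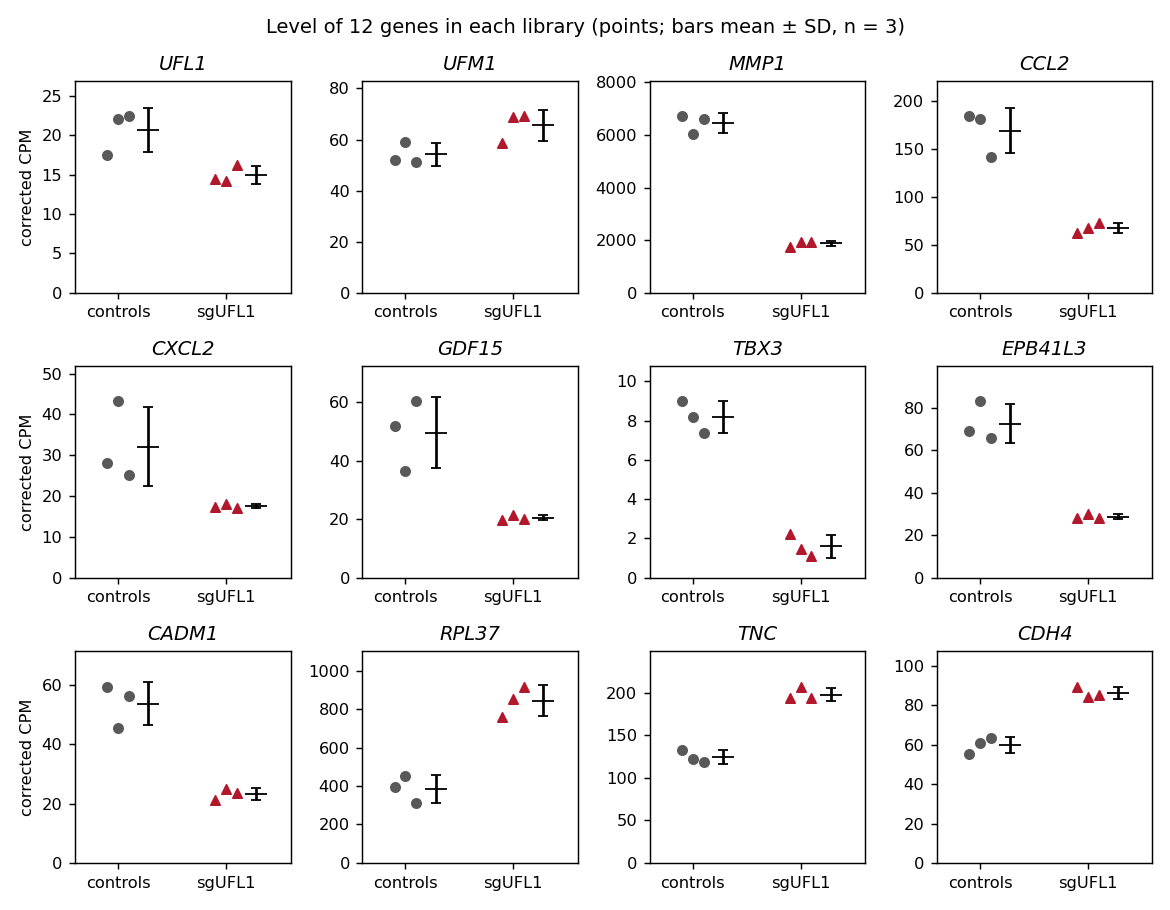
Corrected CPM (y axis, from 0) of 12 genes in the 3 control libraries (grey circles) and the 3 sgUFL1 libraries (red triangles), with the mean and SD of each group beside the points. For MMP1, CCL2, TBX3, EPB41L3 and CADM1 all red points lie under all grey ones, for RPL37, TNC and CDH4 all lie above them, and for UFM1 the groups overlap.

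After correction, inflammatory genes were called in 1 direction. NF-kB is a family of transcription factors that drive cytokines, chemokines and their own inhibitors, and MDA-MB-231 cells are known to run it at a high basal level. Of 29 tested genes on the list of NF-kB components and inflammatory cytokines, 7 were lower and none higher (24.1% lower, against 3.14% of all genes tested), with a median log2 fold change of -0.21 against -0.01 over all genes. With library scaling alone 8 were lower and 5 higher (median -0.18), where 18.4% of all genes tested were lower and 17.4% higher, so that the calls went both ways. The 3 of these genes with a decamer of the NF-kB type in their promoters are CXCL2, TNFAIP3 and BIRC3, given as the 250 bases before the RefSeq start of each gene (GRCh38.p14), 5' to 3' on the strand of the gene, with the decamer, GGG and TTTCC separated by any 2 bases, or its reverse complement in capitals.
CXCL2: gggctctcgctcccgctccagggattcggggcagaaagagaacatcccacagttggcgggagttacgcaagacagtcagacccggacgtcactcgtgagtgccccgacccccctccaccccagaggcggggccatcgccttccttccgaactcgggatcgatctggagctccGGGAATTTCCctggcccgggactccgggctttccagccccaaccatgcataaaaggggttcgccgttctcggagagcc
TNFAIP3: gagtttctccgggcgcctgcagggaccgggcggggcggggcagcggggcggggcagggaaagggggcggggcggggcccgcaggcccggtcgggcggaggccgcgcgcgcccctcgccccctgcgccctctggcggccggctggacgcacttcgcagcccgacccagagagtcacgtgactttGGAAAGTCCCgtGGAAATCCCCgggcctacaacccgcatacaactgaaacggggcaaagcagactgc
BIRC3: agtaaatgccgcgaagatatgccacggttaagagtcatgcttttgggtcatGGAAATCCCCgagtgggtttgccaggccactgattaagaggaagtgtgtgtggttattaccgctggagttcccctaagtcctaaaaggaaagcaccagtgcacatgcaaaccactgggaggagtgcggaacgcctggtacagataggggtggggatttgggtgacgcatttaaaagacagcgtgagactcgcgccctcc

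The windows are chr4:74099196-74099445 on the minus strand, chr6:137867009-137867258 on the plus strand and chr11:102317234-102317483 on the plus strand. The match begins 78 bases before the start in CXCL2, 199 before it in BIRC3, and 67 and 55 before it in TNFAIP3, which holds 2 matches. Of the 24 tested list members with a promoter in the RefSeq table, 12 held the decamer on either strand, against 1.73% of all 35116 promoters. It stood in 3 of the 6 lower members with a promoter and in 9 of the 18 others, so the letters did not separate the genes that fell from the rest.

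CXCL2, a neutrophil chemokine, was measured at 28.1, 43.2 and 25.1 CPM in the controls and at 17.4, 18.1 and 17.2 in sgUFL1. Its log2 fold change was -0.87 (SE 0.18, adjusted p = 0.015), with replicate 2 the highest control, and -0.56 (adjusted p = 0.056) with library scaling alone. BIRC3, an inhibitor of apoptosis that acts in tumour necrosis factor receptor signalling, went from 140, 121 and 140 CPM to 101, 96.2 and 91.9 (log2 -0.47, SE 0.08, adjusted p = 0.0095). TNFAIP3, the deubiquitinase A20 that damps NF-kB, went from 48.5, 41.8 and 45.6 CPM to 32.2, 36.3 and 31.8 (log2 -0.44, SE 0.10, adjusted p = 0.023). The other lower members, named here after their values were seen, were CCL2, IL1A (log2 -1.54, adjusted p = 0.037, at most 2.41 CPM), IL1B (log2 -0.53, adjusted p = 0.039) and RELA, the p65 subunit (log2 -0.28, adjusted p = 0.037, and 0.18 with library scaling alone). Not every cytokine moved: CXCL8 gave 0.08 (adjusted p = 0.83), and IL6, at 16, 34.0 and 18.2 CPM against 13.7, 14.8 and 13.9, gave -0.69 (adjusted p = 0.097). The number of lower members was 10 without control replicate 2, where 5 were higher, 4 without control replicate 1 or 3, 2 without sgUFL1 replicate 1, and 1 without sgUFL1 replicate 2 or 3. CCL2 kept its call in all 6 of these fits, whereas CXCL2 lost its call without any sgUFL1 library (adjusted p up to 0.10), BIRC3 without sgUFL1 replicate 2 or 3 (up to 0.092) and TNFAIP3 in 5 fits (up to 0.14).

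Of the stress genes of the ATF4 pathway, GDF15 fell in every fit of the comparison with 1 library left out, and few others were called. ATF4 is the transcription factor of the integrated stress response, which raises amino acid and stress genes when translation initiation is slowed. Of 27 tested members 4 were lower and none higher (14.8% lower, against 3.14% of all genes), with a median of -0.06 that becomes 0.06 with library scaling alone. Against the controls for sgUFM1 only 1 member was lower (median 0.01), where 1.08% of all tested genes were lower. The control groups differed by a median of -0.13 over this list (controls for sgUFM1 minus controls for sgUFL1). GDF15, a stress-induced secreted member of the TGF-beta family, fell from 52.0, 36.5 and 60.3 CPM to 19.8, 21.5 and 20.2, a log2 change of -1.27 (SE 0.16, adjusted p = 0.0019), and kept its call without any 1 library. Its change was -0.67 (adjusted p = 0.0046) with library scaling alone. TRIB3, a pseudokinase target of ATF4 and CHOP, gave -0.49 (adjusted p = 0.019, and 0.09 with library scaling alone), GARS, a glycyl-tRNA synthetase, -0.36 (adjusted p = 0.039), and DDIT3, which encodes CHOP, -0.73 (SE 0.20, adjusted p = 0.049). These 3 lost their calls in 5 of the 6 smaller fits, which left 1 lower member in each of them, while 9 were lower and 1 higher without control replicate 2.

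Few ER genes were called, with more lower than higher. Of 38 tested ER stress targets of XBP1 and ATF6, 1 was higher and 3 were lower (7.89% lower, against 3.14% of all genes, median -0.05). SELENOK, an ER membrane selenoprotein, rose by 0.46 (adjusted p = 0.02, and 0.30 at adjusted p = 0.064 with library scaling alone), and EDEM1, which hands misfolded glycoproteins to degradation, fell by 0.32 (adjusted p = 0.032). SYVN1, the ERAD ubiquitin ligase HRD1, gave -0.30 (adjusted p = 0.042, and 0.04 with library scaling alone), and ERN1, the stress sensor IRE1, -0.36 (adjusted p = 0.044). Of 33 translocon, oligosaccharyltransferase and signal recognition particle genes, 2 were higher and 3 lower (6.06% and 9.09%). OSTC, an oligosaccharyltransferase subunit, was measured at 89.0, 80.4 and 90.8 CPM in the controls and 60.3, 63.9 and 62.5 in sgUFL1 (log2 -0.48, SE 0.08, adjusted p = 0.0066), while TMEM258, another subunit of the same complex, was higher by 0.55 (SE 0.10, adjusted p = 0.011). Both lost their calls without sgUFL1 replicate 2 or 3 (adjusted p up to 0.063 for OSTC and 0.091 for TMEM258). Of 16 genes of the COPII coat, which buds vesicles from the ER, 3 were lower (SEC31A at -0.34, SEC24B at -0.43 and SEC16A at -0.28) and 1 was higher (SAR1B at 0.32, and -0.14 with library scaling alone). That is 18.8% lower, and SEC16A gave -0.04 (adjusted p = 0.75) with library scaling alone. No lower member of the coat was left without control replicate 3 or without any sgUFL1 library, at an adjusted p of up to 0.19 for SEC16A. Among 16 ER-phagy genes only RTN4, the reticulon Nogo that shapes ER tubules, was called, at 0.40 (SE 0.08, adjusted p = 0.017). RTN4 gave 0.01 (adjusted p = 0.95) with library scaling alone and 0.17 (adjusted p = 0.21) against the controls for sgUFM1. Against those controls 1 of the ER stress targets was lower, where 1.08% of all tested genes were lower. No translocon, COPII or ER-phagy gene was called there.

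Messages of the cytosolic ribosome were, of the 35 lists, the one with the most rises. Of 78 tested ribosomal protein genes 30 were higher and none lower (38.5% higher, against 4.06% of all genes tested), and the median log2 fold change was 0.28, or 0.38 with library scaling alone. RPL26, the ribosomal target of UFM1 (ENSG00000161970, chromosome 17, 8377516 to 8383250), was measured at 34.4, 33.4 and 21.5 CPM in the controls and at 76.2, 75.8 and 81.8 in sgUFL1. Its log2 fold change was 1.39 (SE 0.15, adjusted p = 0.00065), the highest of the list, and its exons overlap the annotated gene AC135178.2 on the same strand. RPL37, without such an overlap, rose from 394, 453 and 309 CPM to 757, 853 and 917 (log2 1.13, SE 0.13, adjusted p = 0.0012). RPS29 rose from 217, 253 and 231 CPM to 389, 402 and 465 (log2 0.84, SE 0.09). RPL37A rose from 541, 663 and 516 CPM to 943, 1090 and 1150 (log2 0.89, SE 0.11). These 4 kept their calls whichever library was left out. Ribosomal protein genes have many processed copies, and where reads fit several of them the counting could split them. Over the libraries left out the number higher was 54 without control replicate 2 (1 lower), 17 to 20 without control replicate 1 or 3 or sgUFL1 replicate 1, 7 without sgUFL1 replicate 2 and 6 without sgUFL1 replicate 3, with medians of 0.23 to 0.38. Of the 42 members whose exons overlap no other gene on the same strand, 16 were higher. The fall at the low end of the list, RPS10 at -0.81, did not pass the test (adjusted p = 0.12).

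Nuclear genes of oxidative phosphorylation were likewise called higher only, and no mitochondrially encoded message was called higher. Of 56 nuclear subunits of the respiratory chain and ATP synthase 16 were higher and none lower (28.6% higher, median 0.23). NDUFS6, a complex I subunit, rose from 46.4, 54.6 and 46.6 CPM to 76.4, 81.8 and 75.1 (log2 0.66, SE 0.09, adjusted p = 0.003), and held without any 1 library. COX8A, a cytochrome oxidase subunit, gave 0.72 (SE 0.12, adjusted p = 0.0064), and ATP5F1E, the epsilon subunit of ATP synthase, gave 0.83 (SE 0.14, adjusted p = 0.0075). COX8A lost its call without sgUFL1 replicate 2 (adjusted p = 0.058), as did ATP5F1E without sgUFL1 replicate 2 or 3 (up to 0.061). The number higher was 31 without control replicate 2 (1 lower), 9 to 12 without control replicate 1 or 3 or sgUFL1 replicate 1, 3 without sgUFL1 replicate 3 and 1 without sgUFL1 replicate 2. Of the 13 mitochondrially encoded messages 3 were lower (MT-ND4L at -0.57, MT-ND1 at -0.36 and MT-CO1 at -0.39) and none higher (23.1% lower, against 3.14% of all genes). The list median was -0.05, with 5 members positive and 8 negative. The number lower was 4 without control replicate 2 (2 higher) and 3 without control replicate 1 or 3. It was 1 without sgUFL1 replicate 1 or 3 and 0 without sgUFL1 replicate 2. Against the controls for sgUFM1 none of the 13 was called, with MT-ND4L at -0.04 (adjusted p = 0.78), MT-ND1 at -0.13 (adjusted p = 0.27) and MT-CO1 at -0.02 (adjusted p = 0.92).

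The ribosomal, oxidative phosphorylation and mitochondrial lists also differed between the control groups. Against the controls for sgUFM1 the same sgUFL1 libraries had 7 ribosomal protein genes higher and none lower (median 0.16), and 2 oxidative phosphorylation genes higher (median 0.08), where 2.84% of 15033 tested genes were called, with 1.76% higher and 1.08% lower. Between the control groups, the controls for sgUFM1 minus the controls for sgUFL1 gave medians of 0.14 and 0.11 for the ribosomal and nuclear oxidative phosphorylation lists and of -0.17 for the mitochondrial messages. RPL37 was at 476, 634 and 617 CPM in the controls for sgUFM1, between the levels of its own controls and sgUFL1, and had a log2 fold change of 0.53 (adjusted p = 0.04) against them. RPL26 gave 0.33 (adjusted p = 0.03) and RPL37A 0.30 (adjusted p = 0.093). The same sgUFL1 libraries enter both comparisons, so the sets of values are not independent. The NF-kB list had 5 lower and none higher against the controls for sgUFM1 (1.08% of all tested genes were lower), with a median of -0.26.

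**Figure D4:**
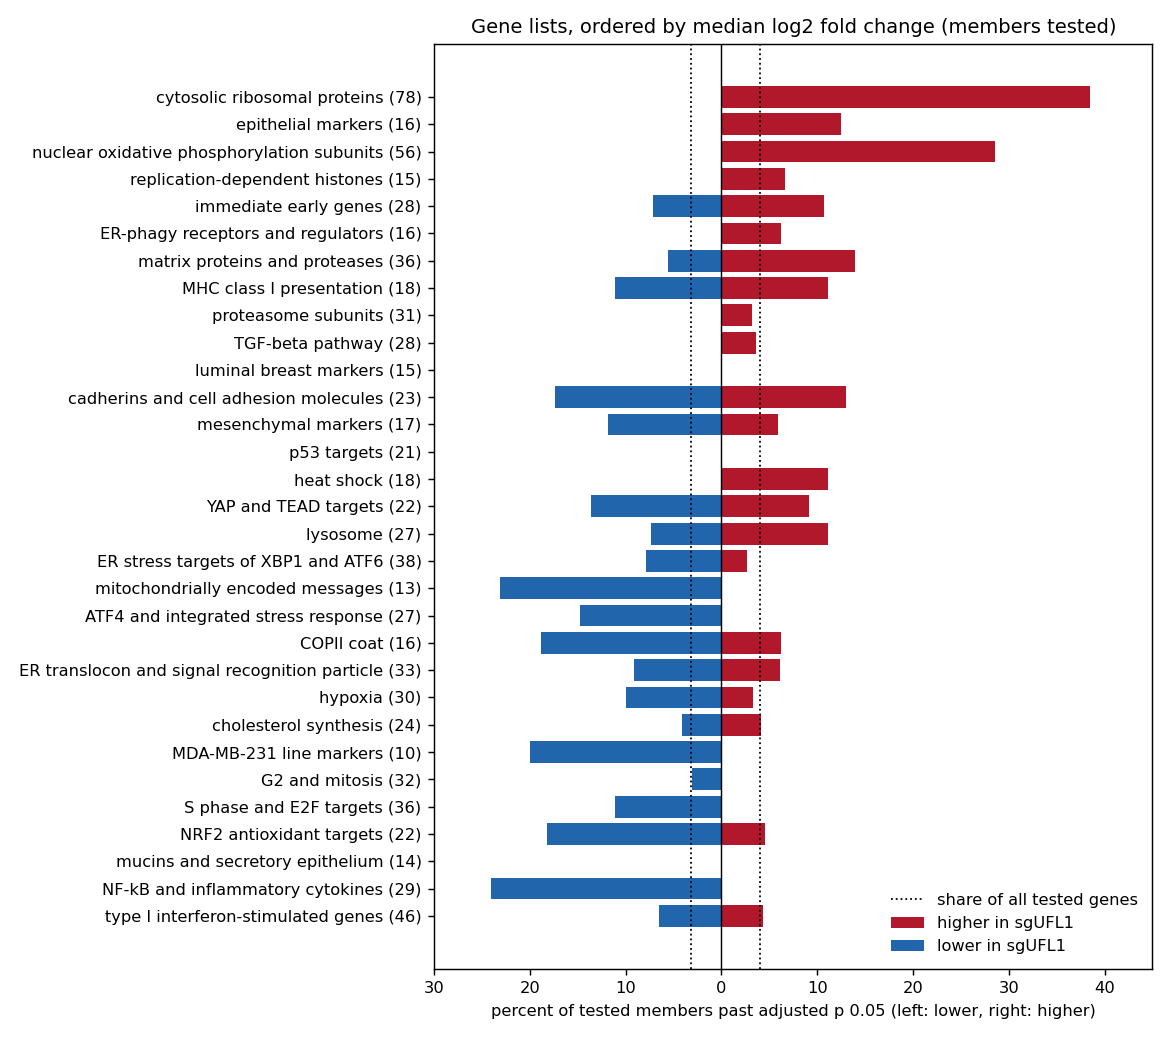
Share of the tested members of each gene list (number tested in brackets) that were higher (red, to the right) or lower (blue, to the left) in sgUFL1 at an adjusted p under 0.05 (x axis, percent), for lists with at least 10 tested members, ordered by median log2 fold change; dotted lines give the shares over all tested genes, 4.06% higher and 3.14% lower. Ribosomal proteins (38.5%) and nuclear oxidative phosphorylation subunits (28.6%) reach farthest to the right, and the NF-kB list (24.1%) farthest to the left.

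Many of the highest protein-coding genes shared exons with other genes. NUDT3, a diphosphoinositol phosphatase, rose from 6.64, 5.88 and 3.83 CPM to 21.1, 28.9 and 22.6, a log2 change of 2.15 (SE 0.20, adjusted p = 0.00044). GPS2, a subunit of the NCoR corepressor, rose from 3.11, 3.90 and 2.02 CPM to 12.7, 12.3 and 12 (log2 2.02, SE 0.21). TAF10, a subunit of TFIID and SAGA, rose from 7.49, 5.54 and 3.98 CPM to 21.3, 22.7 and 23.3 (log2 1.97, SE 0.19). CYP51A1, the lanosterol demethylase of cholesterol synthesis, gave 1.70 (adjusted p = 0.0048) and MRPL12, a mitochondrial ribosomal protein, 1.58 (adjusted p = 0.00044). All 5 kept their calls without any 1 library, and control replicate 3 was the lowest control for each. The exons of these 5 overlap another annotated gene on the same strand, NUDT3 for example the read-through gene RPS10-NUDT3, so their counts could be shaped by how shared reads were assigned. Among the 12 highest coding genes 7 have such an overlap and among the 12 lowest none, where 15.7% of the tested genes do.

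Against the controls for sgUFM1, 3 of the 12 highest protein-coding genes (ANO2, PCDH1 and TNS1) and 8 of the 12 lowest passed the threshold in the same direction. NUDT3 was at 15.7, 18.8 and 20.8 CPM in the controls for sgUFM1 and gave 0.38 (SE 0.15, adjusted p = 0.18) against them, and TAF10 was at 21.2, 22.5 and 25.9 CPM and gave -0.03 (adjusted p = 0.92). MRPL12 gave 0.24 (adjusted p = 0.12) and GPS2 0.21 (adjusted p = 0.34). Tested directly, the control groups differed by 1.78 for NUDT3 and 2.01 for TAF10 (controls for sgUFM1 minus controls for sgUFL1, adjusted p = 0.13 for each). F8A1, RFPL4A, SUSD2 and TMPRSS15 are the 4 of the lowest that did not pass. F8A1 gave -0.59 (adjusted p = 0.076), with -1.06 between the control groups, and RFPL4A -0.37 (adjusted p = 0.64), with -1.13 between them (adjusted p = 0.13 and 0.85 for the differences between control groups). F8A1 was at 8.2, 8.5 and 8.32 CPM in the controls for sgUFM1, between its own controls and sgUFL1, and RFPL4A at 56.5, 18.3 and 16.8. SUSD2 gave -2.13 (adjusted p = 0.25) and TMPRSS15 -1.27 (adjusted p = 0.15). Among those that passed, MMP1 was at 6800, 6040 and 6040 CPM in the controls for sgUFM1 and gave -1.78 (adjusted p = 6.6e-06) against them, with -0.01 (SE 0.10) between the control groups. CCL2 gave -1.24 (adjusted p = 5.8e-05), EPB41L3 -1.29 (adjusted p = 0.00052), TBX3 -2.55 (adjusted p = 0.0016), CADM1 -0.99 (adjusted p = 0.0028), GDF15 -1.09 (adjusted p = 0.013) and CCDC144NL-AS1 -4.53 (adjusted p = 0.00048). Over all genes, the median size of the log2 fold change was 0.18 for sgUFL1 against its controls, 0.15 against the controls for sgUFM1 and 0.12 between the control groups. By the names of the count table, the last of these would be the comparison of sgUFL1 with its controls. There edgeR called 0 of 14996 genes, with 904 at an unadjusted p under 0.05 and a smallest adjusted p of 0.13, and DESeq2 called 76.

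PCDH1 and ANO2, also among the highest coding genes, had no exon overlap on either strand. PCDH1, a protocadherin of epithelial junctions, rose from 3.01, 2.72 and 2.47 CPM to 8.38, 7.93 and 6.18 (log2 1.45, SE 0.21, adjusted p = 0.0038), kept its call without any 1 library and gave 1.13 (adjusted p = 0.035) against the controls for sgUFM1. ANO2, a calcium-activated chloride channel, rose from 2.13, 1.15 and 1.9 CPM to 4.81, 5.03 and 5.38 (log2 1.55, SE 0.27, adjusted p = 0.0083), and lost its call without sgUFL1 replicate 2 or 3 (adjusted p up to 0.062).

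Adhesion and matrix genes moved in both directions. Of 23 tested cadherins and adhesion molecules 3 were higher and 4 lower (13% and 17.4%, against 4.06% and 3.14% of all genes tested). CDH4, a retinal-type cadherin, rose from 55.2, 61.0 and 63.3 CPM to 89.5, 84.0 and 85.3 (log2 0.53, SE 0.08, adjusted p = 0.0048), beside the falls of CADM1 and EPB41L3 given above. Of 36 matrix proteins and proteases 5 were higher and 2 lower (13.9% and 5.56%), MMP1 having the smallest p. TNC, the matrix glycoprotein tenascin C, rose from 133, 122 and 118 CPM to 193, 207 and 193 (log2 0.67, SE 0.08, adjusted p = 0.0013), and PLAT, the tissue plasminogen activator, from 272, 213 and 261 CPM to 360, 410 and 395 (log2 0.64, SE 0.10, adjusted p = 0.0055). CDH4 and TNC kept their calls without any 1 library, and against the controls for sgUFM1 they gave 0.62 (adjusted p = 0.0064) and 0.64 (adjusted p = 0.0018). PLAT lost its call without sgUFL1 replicate 2 or 3 (adjusted p = 0.058 at most). PDPN, the glycoprotein podoplanin, and ADGRF5, an adhesion receptor, belong to the 92 genes called in all fits and are named here after their values were seen: PDPN fell by 0.94 (adjusted p = 0.0031) and ADGRF5 by 0.78 (adjusted p = 0.00044). Of 16 epithelial markers 2 were higher (12.5%) and none lower (median 0.26), DSP, the desmosomal plakin, at 0.55 (adjusted p = 0.013) and CLDN7, a claudin, at 0.72 (adjusted p = 0.025). DSP lost its call without sgUFL1 replicate 1 or 2 (up to 0.069), CLDN7 in 4 of the 6 fits (up to 0.13), and no epithelial marker was called without sgUFL1 replicate 1 or 2. Mesenchymal markers gave 1 higher and 2 lower of 17 (5.88% and 11.8%). These were FN1, fibronectin, at 0.33 (adjusted p = 0.038), VIM, vimentin, at -0.42 (adjusted p = 0.036), and S100A4 at -0.60 (adjusted p = 0.038). With library scaling alone they gave 0.23, -0.30 and -0.30, and none was called (adjusted p = 0.15, 0.064 and 0.24). Each lost its call in 4 of the 6 smaller fits. Before correction, the summed CPM of the luminal breast markers was 927 to 1130 in the controls and 1250 to 1410 in sgUFL1. After correction their median log2 fold change was 0.05, with no member called of 15, and it was 0.45 with library scaling alone. The part of this sum in these results was not tested.

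Genes of immune recognition were split. Of 46 tested interferon-stimulated genes 2 were higher and 3 lower (4.35% and 6.52%, against 4.06% and 3.14% of all genes), with a median of -0.23. ISG20, an exonuclease, rose from 7.94, 8.11 and 7.70 CPM to 12.7, 15.3 and 14.7 (log2 0.84, SE 0.14, adjusted p = 0.007). IFI35 gave -0.68 (adjusted p = 0.0093, and -0.20 with library scaling alone), OAS3, a double-stranded RNA sensor, -0.37 (adjusted p = 0.015, and -0.18 with library scaling alone), and the antiviral membrane protein IFITM3 -0.36 (adjusted p = 0.017, and 0.25 with library scaling alone). Of 18 antigen presentation genes 2 were higher and 2 lower (11.1% each way). HLA-F gave 1.29 (adjusted p = 0.013) at low levels, 1.79, 1.85 and 1.41 CPM in the controls and 3.68, 4.44 and 4.29 in sgUFL1. PSMB9, whose exons overlap PSMB8-AS1 on the same strand, gave 0.46 (adjusted p = 0.028). Among the lower ones was TAP2 at -0.32. Because HLA genes resemble one another, their counts depend on how multiply fitting reads were treated. CD274, which encodes the checkpoint ligand PD-L1, rose from 35.8, 32.2 and 38.9 CPM to 51.6, 54.8 and 57.5 (log2 0.62, SE 0.10, adjusted p = 0.0054), with 0.77 (adjusted p = 0.014) against the controls for sgUFM1. CD274 gave 0.21 with library scaling alone and was not called there (adjusted p = 0.23). After correction it was the only call among 7 checkpoint ligands and ended without sgUFL1 replicate 2 or 3 (adjusted p up to 0.053).

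Among the proliferation, growth-factor and metabolic lists, the share of lower genes lay above the 3.14% of all genes, from 2 to 4 genes each, in the NRF2 (18.2%), YAP and TEAD (13.6%), S phase (11.1%), hypoxia (10%), lysosome (7.41%) and immediate early (7.14%) lists. Of these, the lysosome (11.1%), immediate early (10.7%) and YAP and TEAD (9.09%) lists also had more higher genes than the 4.06% of all genes. Their medians were -0.04, 0.12 and -0.02. In the NRF2 list 4.55% were higher. Of 36 S phase and E2F targets 4 were lower and none higher (median -0.18): RRM2, the ribonucleotide reductase subunit, at -0.45, the replication factors RFC5 at -0.29 and CDC45 at -0.39, and ORC1, an origin recognition subunit, at -0.39. No member was called lower when any 1 of the sgUFL1 libraries was left out. Against the controls for sgUFM1, 5 members were lower (median -0.14), where 1.08% of all tested genes were lower. Of 32 G2 and mitosis genes only CDC25B, a CDK phosphatase, was called, at -0.64 (adjusted p = 0.0055, and -0.25 at adjusted p = 0.068 with library scaling alone). Among 28 immediate early genes IER5 (0.62, adjusted p = 0.0031), JUN (0.47, adjusted p = 0.0055) and EGR1 (0.60, adjusted p = 0.025) rose, and KLF2 gave -0.57 (adjusted p = 0.0079) with 0.29 under library scaling alone. IER5 kept its call without any 1 library but gave 0.11 (adjusted p = 0.42) against the controls for sgUFM1, with 0.51 between the control groups. Of 22 NRF2 antioxidant targets 1 was higher and 4 lower (median -0.19). With the controls for sgUFM1, 4 were lower and none higher (median -0.27), again beside 1.08% of all tested genes lower. Among the lower ones was FTL, the ferritin light chain, which went from 2140, 3230 and 2140 CPM to 1600, 1570 and 1680 (log2 -0.63, SE 0.14, adjusted p = 0.025, and -0.19 with library scaling alone). EGFR, the growth factor receptor abundant in this line, fell from 405, 467 and 440 CPM to 344, 302 and 310 (log2 -0.46, SE 0.09, adjusted p = 0.013), a call that ended without sgUFL1 replicate 2 or 3. Calls in the hypoxia list were 1 higher and 3 lower of 30, in heat shock 2 (11.1%) and 0 of 18, in YAP and TEAD targets 2 (9.09%) and 3 of 22, in lysosome genes 3 (11.1%) and 2 of 27, in cholesterol synthesis 1 and 1 of 24, in histones 1 and 0 of 15, in TGF-beta genes 1 and 0 of 28 and in proteasome subunits 1 and 0 of 31. No p53 target of 21 and no mucin or secretory gene of 14 was called.

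Calls were unevenly spread over the chromosomes. On chromosome 9, 67 of 573 tested genes were higher and 3 lower, and on chromosome 5, 68 of 708 were higher and 4 lower, shares of 11.7% and 9.6% higher against 4.06% over all genes. On the X chromosome 6 of 508 were higher and 42 lower (8.27% lower), and on chromosome 21, 2 of 155 were higher and 15 lower (9.68% lower). The median log2 fold change was 0.14 over chromosome 5, 0.09 over chromosome 9, -0.13 over the X chromosome and -0.10 over chromosome 21, and against the controls for sgUFM1 it was 0.15, 0.10, -0.14 and -0.08. With library scaling alone these medians were -0.04, 0.19, -0.23 and -0.08, so that the sign of chromosome 5 depended on the correction. On each of these 4 chromosomes the library medians of the groups did not overlap. The same held for 15 of 24 chromosomes (the mitochondrial one included), among them 16 and 17 with medians of -0.02, and for such a set the exact two-sided permutation test of 3 libraries against 3 gives 0.1, the smallest p this design allows. Chromosome 15, at 0.15, had control medians of -0.13, 0.06 and -0.13, so that control replicate 2 lay near the sgUFL1 libraries (0.07, 0.08 and 0.07).

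**Figure D5:**
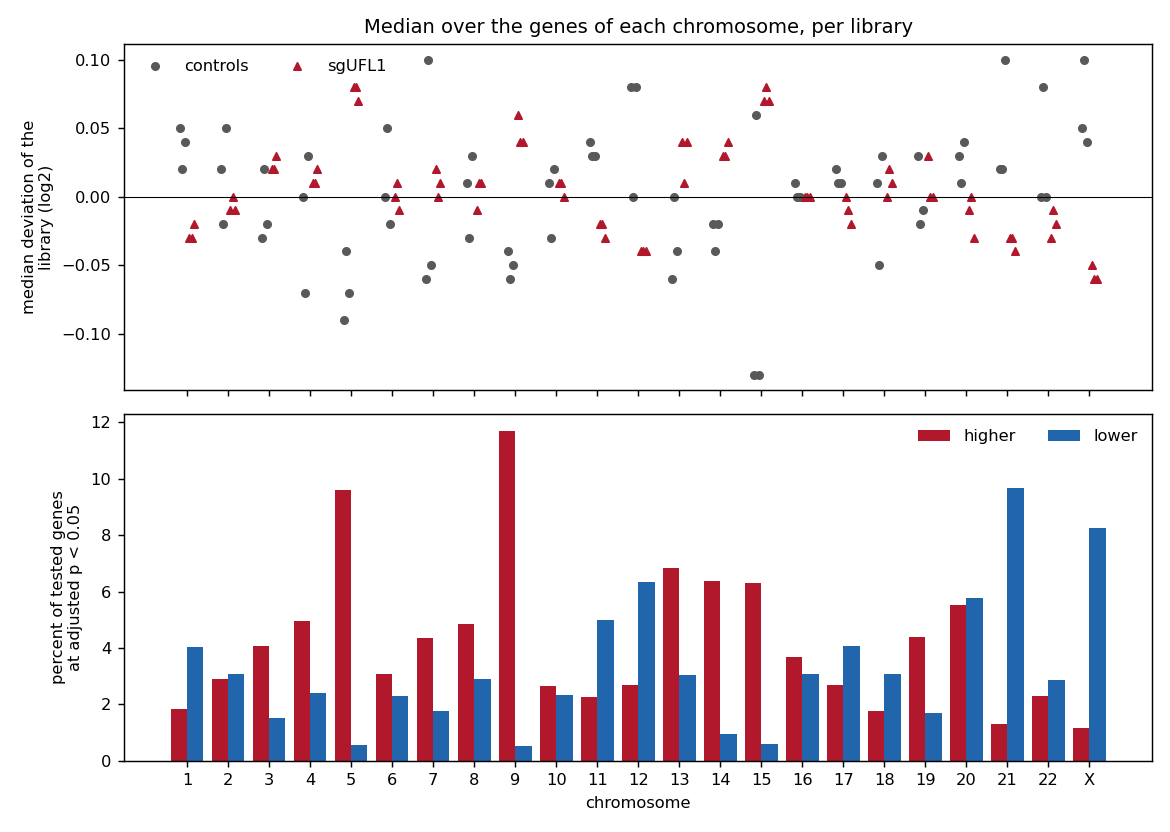
Top, median deviation of each library from the mean of the 6 libraries (y axis, log2) over the tested genes of each chromosome (x axis), controls as grey circles and sgUFL1 as red triangles; bottom, percent of the tested genes of each chromosome that were higher (red) or lower (blue) at an adjusted p under 0.05. All sgUFL1 libraries lie above all controls on chromosomes 5 and 9 and below them on chromosome X, and chromosome 9 has the highest share of higher genes (11.7%).

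The strongest run of neighbours lay on the short arm of chromosome 9. Over all runs of 20 neighbouring tested genes, percentiles 5 and 95 of the run medians were -0.18 and 0.19. The run from PLPP6 to TYRP1, which holds JAK2, CD274 and PDCD1LG2 (chromosome 9, 4662315 to 12710290), had a median of 0.58, with 18 of 20 genes positive and 8 called higher, and a median of 0.55 against the controls for sgUFM1. The median of this run was 0.22 with library scaling alone. Its library medians were -0.19, -0.39 and -0.23 in the controls and 0.26, 0.29 and 0.19 in sgUFL1. DMAC1, an assembly factor of complex I in this run, rose from 7.48, 7.68 and 7.48 CPM to 17.5, 19.5 and 20.6 (log2 1.35, adjusted p = 0.00048), AK3, a mitochondrial adenylate kinase, by 0.74 (adjusted p = 0.002) and JAK2, the cytokine receptor kinase, by 0.82 (adjusted p = 0.034). With library scaling alone DMAC1 gave 0.99 (adjusted p = 0.0012), AK3 0.29 (adjusted p = 0.062) and JAK2 0.33 (adjusted p = 0.30). DMAC1 and AK3 kept their calls without any 1 library, and these 3 genes and the run were picked after their values were seen. The lowest runs lay on chromosome 21, from U2AF1L5 to NCAM2 (median -0.47, 6 lower), and on the X chromosome, from AL009174.1 to HTATSF1 (median -0.39, 8 lower), at -0.74 and -0.67 with library scaling alone. The part of gene position in the changes of single genes was not tested.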

How the data were processed

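RNA was sequenced in 12 libraries of MDA-MB-231 cells in 4 groups of 3. The authors deposited whole-number read counts per gene and FPKM values (fragments scaled by gene length and library size) for 58735 genes. fastp 0.20.1, STAR 2.7.7a and featureCounts 2.0.0 with GRCh38 are named in the submitters' processing notes, while their settings and the strand are not stated there. Count columns were assigned to libraries by proportionality to the FPKM columns over 12320 genes. Log2 ratios of matching columns had an SD of at most 6e-10 and those of the closest other column 0.193 or more, and 6 of 12 libraries matched a column of another name. All 58735 identifiers are in GENCODE release 29, and GC content was computed from its transcripts.

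The 6 libraries were tested with the quasi-likelihood test of edgeR 4.0.16 under R 4.3.3, after filterByExpr and TMM scaling, with offsets from a lowess trend (span 0.3) of each library on GC content and then on log2 length, and Benjamini-Hochberg adjustment at 0.05. All adjusted p-values are from this test unless another tool is named. Corrected CPM divides these trends out. Such offsets also remove any real change that follows GC content or length. The script was tested on simulated data. Alternatives used DESeq2 1.42.0 and limma 3.58.1 on log2(FPKM + 0.5). Values for the 6 other libraries come from a correction over all 12, and comparisons with the other controls from their own fit. Counts of replicates differed by more than sampling noise (chi-square of 2.41 to 34.88 per gene), so each was counted as 1 library. Depth was 15342793 to 18033331 counts per library.

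Named genes are the 12 highest and 12 lowest protein-coding and the 3 highest and 3 lowest noncoding genes called with and without offsets and averaging 5 CPM or more in either group, up to 4 called members of each of 35 lists by smallest p, and UFL1 and UFM1; a few genes the rule names are not reported here. The members and lists were chosen with earlier results of these data known. Promoters are from RefSeq (GRCh38.p14).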

Additional observations from a re-analysis of the deposited data

How the results depend on the processing

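Counts of higher and lower genes (616 and 477) stayed within 1.5 times with offsets for GC content alone, a lowess span of 0.6, RLE or upper-quartile scaling, a filter of 1 CPM, DESeq2 (840 and 669) and without genes that overlap another on the same strand (an alternative added after seeing the data). They moved to 2641 and 2797 with no offsets, 1032 and 813 with no filter, 979 and 917 with all 12 libraries in 1 model, 2347 and 2094 by limma on FPKM with a pseudocount of 0.5 (2296 and 2093 at 0.1, 2380 and 2104 at 1, 997 and 790 with no filter, 285 and 157 with the trends removed), 333 and 274 without genes overlapping on either strand (also added, fewer genes), 110 and 66 at 2-fold, and 0 and 0 by the names of the count table. Leaving out 1 library gave 72 to 1805 higher and 30 to 1613 lower. Same-numbered libraries of the groups correlated at 0.129, 0.141 and -0.074, so the numbers do not show a pairing. A replicate block gave 713 and 472 with offsets, and 2856 and 2815 without.

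UFL1 (-0.47, adjusted p = 0.0512) passed the threshold at -1.02 with no offsets, -0.47 with no filter, at 1 CPM, by DESeq2 and with 12 libraries, -0.46 with the replicate block and offsets, -1 with the block alone, and by limma at -0.87 (with and without the filter), -0.95 (pseudocount 0.1) and -0.78 (pseudocount 1). Leaving out 1 library gave -0.58 to -0.41, and UFL1 passed without control replicate 1 (adjusted p = 0.0343) or 2 (adjusted p = 0.0264) and not without any of the other 4. It was -0.10 by the names of the count table.

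Signs turned in settings with no offsets, in the order no offsets, replicate block without offsets, limma on FPKM at pseudocounts 0.5, 0.1 and 1, and limma with no filter. KLF2 gave 0.29, 0.28, 0.29, 0.30, 0.29 and 0.29, TEAD4 0.27, 0.28, 0.29, 0.29, 0.28 and 0.29, AMOTL2 0.02, 0.03, 0.05, 0.05, 0.04 and 0.05, and SAR1B -0.14, -0.13, -0.11, -0.11, -0.10 and -0.11. IFITM3 gave 0.25 in the count fits and 0.27 in each limma fit, SYVN1 0.04 and 0.06, and TRIB3 0.09 and 0.10. ADM gave 0.02 in each limma fit and 0.00 with the replicate block without offsets. By the names of the count table, signs turned for TNS1 (-0.42), IGFN1 (0.17), MMP3 (0.44), TBX3 (0.22), SAMSN1 (0.04), TMEM132D-AS1 (-0.17), CXCL2 (0.09), CD274 (-0.16), ORC1 (0.01), ADM (0.06), IGFBP3 (-0.15), PLAT (-0.06), DSP (-0.12), FN1 (-0.13) and CDH4 (-0.08). The cause was not tested beyond what each setting changes. Depth limits genes under a few CPM.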
